A study of Drosophila melanogaster with 20 samples.

Results

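SuUR-sensitive regions (SSRs) are stretches of Drosophila melanogaster chromosomes that were listed because their H3K27me3 signal was lower in SuUR mutants on published ChIP-chip arrays made with other antibodies. The regions described here are the SSRs on the autosomal arms 2L, 2R, 3L and 3R that share no base with any of 101 regions known to be under-replicated in salivary glands, and which are therefore counted as fully polytenized. There were 71 of them among 193 SSRs, with 16 on 2L, 9 on 2R, 22 on 3L and 24 on 3R. A further 78 autosomal SSRs overlapped an under-replicated region and serve for comparison. The SSR of 3L that starts at 22947810 (1578.69 kb) was left out, and 43 SSRs on other chromosomes and scaffolds were not considered. The DNA copy number of these regions was not measured in the profiles used, so the label "fully polytenized" rests on the published list of under-replicated regions. The authors also measured DNA copy number by qPCR in a few SSRs outside such regions and saw no under-replication there in wild type. Which of the 71 SSRs were among those was not traced here.

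In polytene chromosomes many DNA strands formed by repeated rounds of replication without division lie side by side. The number of strands is not the same everywhere, since forks do not pass through parts of the chromosome that replicate last. SUUR is a chromatin protein of late-replicating regions that slows replication there, and loss of its gene lets most of such regions polytenize further. Trimethylation of lysine 27 of histone H3 (H3K27me3) is the repressive mark that Polycomb repressive complex 2 lays down and that Polycomb recognises. The dimethyl form (H3K27me2) is made by the same enzyme, is spread far more widely and is not a strong ligand of Polycomb.

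The profiles came from salivary glands of 3rd instar larvae of SuUR mutants and of wild type y,w larvae, both raised at 23 °C, with 20 pairs of glands as starting material according to the sample labels. The allele of SuUR and the sex of the larvae are not given in the sources used here. H3K27me3 chromatin was pulled down with antibodies of Cell Signaling Technology (#9733) and H3K27me2 chromatin with those of Millipore. Each of the 4 profiles combines 1 ChIP library and 1 input library. The comparison asks whether methylation of H3K27 in SSRs differs between the genotypes where under-replication is not in play, and which of the methyl forms differs. With a single profile per genotype and mark there is no replicate check, so no p-value is given, and the spreads below are spreads between SSRs and not between animals.

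Every value is the log2 of the ChIP to input ratio in a window of 50 kb, and a new window starts every 5 kb. Before normalization between the genotypes, a value of 0 means as much ChIP as input signal. An SSR was given the mean of the windows centred inside it, and these numbered 6 to 33 with a median of 14. A 50-kb window reaches beyond a short SSR, and neighbouring windows share most of their reads, so the windows of an SSR are not separate measurements. The authors had quantile normalized the genotypes to each other within each antibody, and a genome-wide gain or loss cannot appear in the values. Read numbers are not given with the profiles, and neither the depth nor the counting error is known.

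In SuUR mutants the H3K27me3 level was above that of wild type in 45 of the 71 SSRs and below it in 26 (36.6%). The median level was 0.058 in SuUR mutants (lowest −0.30, highest 0.47) and −0.028 in wild type (lowest −0.46, highest 0.15). The median difference, SuUR minus wild type, was 0.107 (SD between SSRs 0.192, n = 71), with a range of −0.32 to 0.585. The arms as a whole showed nearly the same split, since 36.4% of the 19230 arm windows lay lower in SuUR mutants and their median difference was 0.075. Averaging narrows the spread, so stretches of 70 kb, close to the median SSR length, were read in the same way at every window of the arms, and 31.1% of them were lower in SuUR mutants. The share of SSRs with lower H3K27me3 was thus near that of the arms on both counts.

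**Figure D1:**
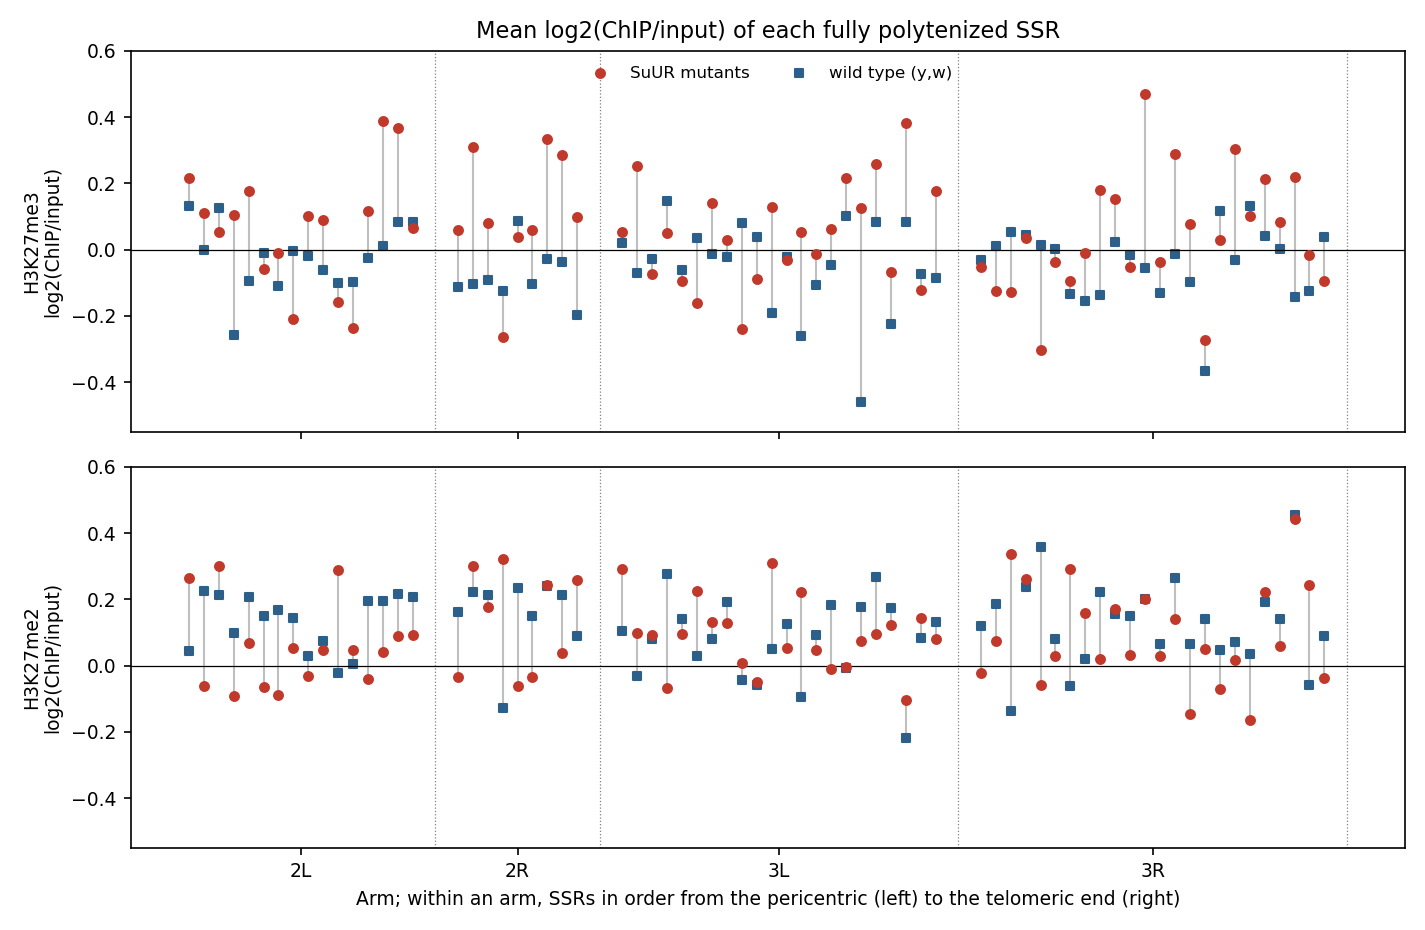
Mean log2(ChIP/input) of each of the 71 fully polytenized SSRs in SuUR mutants (circles) and wild type (squares), with H3K27me3 above and H3K27me2 below, and SSRs ordered along each arm from the pericentric to the telomeric end. Grey lines join the genotypes of an SSR; H3K27me3 was higher in SuUR mutants in 45 SSRs and H3K27me2 was lower in 43.

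A difference of 0.25 or more on the log2 scale was used to mark the wider gaps. For H3K27me3, the SuUR value was higher by this amount in 19 SSRs and lower in 2. With quantile normalization redone over the autosomal arms alone, these counts were 9 and 4, and no share of the arms was taken on that scale. In the deposited values, 23.9% of the arm windows were higher by this amount and 8.86% were lower. Of the 70-kb stretches, 17.9% were higher and 4.90% lower. The 19 SSRs make up 26.8% of the 71 and the 2 make up 2.82%.

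For H3K27me2 the majority lay on the other side. The level was lower in SuUR mutants in 43 of the 71 SSRs (60.6%) and higher in 28. The median was 0.067 in SuUR mutants (−0.16 to 0.44) and 0.14 in wild type (−0.22 to 0.46), and the median difference was −0.051 (SD between SSRs 0.180, n = 71; range −0.42 to 0.47). The arms were evenly divided, with 49.8% of windows and 50.7% of stretches lower in SuUR mutants and a median difference of 0.0 over windows. By at least 0.25, 5 SSRs were lower in SuUR mutants and 7 were higher. With only windows wholly inside, which leaves 54 SSRs and none under 50 kb, 8 were lower and 3 higher. In the 58 SSRs of at least 50 kb, read with all windows centred inside, 5 were lower and 4 higher. With the central window alone, 16 of the 71 were lower and 9 higher. At a threshold of 0.15, 17 were lower and 11 higher. Of the arm windows 12.8% were lower and 12.9% higher by at least 0.25, and of the stretches 5.44% and 5.82%. No share of the arms was taken at 0.15.

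The mean of each SSR was also ranked among all windows of the arms. An SSR is averaged over several windows and the arm windows are single, so the rank depends in part on the averaging. The under-replicated SSRs, which are longer, average more windows. For H3K27me3 the median SSR stood at percentile 64.9 of the arm windows in SuUR mutants and at percentile 61.0 in wild type. For H3K27me2 it stood at percentile 61.6 in SuUR mutants and at 72.7 in wild type. The under-replicated SSRs were at percentile 64.0 of H3K27me3 in SuUR mutants and 70.6 in wild type, and at percentile 67.2 of H3K27me2 in SuUR mutants and 72.7 in wild type.

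SSRs with a high level in SuUR mutants were not in general those with a high level in wild type. Over the 71 SSRs the Pearson correlation between the genotypes was 0.13 for H3K27me3 and −0.018 for H3K27me2 (Spearman 0.070 and −0.025). Over all arm windows it was 0.75 and 0.52, where the windows overlap and include the domains of high H3K27me3. Over the 78 under-replicated SSRs it was 0.24 and 0.15. In each case the genotypes share the normalization within an antibody. The SD of H3K27me3 between SSRs was 0.171 in SuUR mutants and 0.113 in wild type.

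The largest positive H3K27me3 difference was at chr3L:6108740-6152919 (dm3, 44.18 kb), where the level was 0.13 in SuUR mutants and −0.46 in wild type, a difference of 0.585. This SSR had the lowest wild type level of all 71, and none of its windows was lower in SuUR mutants. The 121.369-kb SSR at chr3R:15085321-15206689 had 0.47 in SuUR mutants, the highest of the list, and −0.055 in wild type. Its H3K27me2 level was 0.20 in both genotypes, so a wide gap in the trimethyl mark stood beside none in the dimethyl mark. At chr2R:4374310-4448049 the H3K27me3 level was 0.31 in SuUR mutants and −0.10 in wild type. At chr2L:2047490-2128319 it was 0.39 in SuUR mutants and 0.0097 in wild type, and at chr2L:13702910-13770509 it was 0.10 in SuUR mutants and −0.26 in wild type. In the last 2 SSRs H3K27me2 differed the other way, by −0.16 and −0.19.

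The lowest H3K27me3 difference was at chr3L:10689110-10750520 (61.411 kb), with −0.24 in SuUR mutants and 0.079 in wild type. Next came chr3R:7317860-7381879 (64.02 kb), with −0.30 in SuUR mutants and 0.014 in wild type. This SSR also had the lowest H3K27me2 difference of the list, −0.42, from a level of −0.058 in SuUR mutants and 0.36 in wild type. It was the single SSR in which every window of both marks was lower in SuUR mutants. The remaining 3 of the 5 lowest were chr2L:9795110-9878839 (difference −0.21), chr3L:15852861-15946749 (−0.20) and chr3R:4690710-4753729 (−0.18), and all 5 were 50 to 100 kb long.

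At chr3R:4690710-4753729 the marks parted most widely in that direction. H3K27me3 was −0.13 in SuUR mutants and 0.052 in wild type, and all of its windows were lower in SuUR mutants. H3K27me2 was 0.34 in SuUR mutants and −0.14 in wild type, the highest difference of the list (0.47), and none of its windows was lower. The SSR at chr2R:7955710-8023409 had the same order of genotypes, with H3K27me3 at −0.26 in SuUR mutants and −0.13 in wild type, and H3K27me2 at 0.32 in SuUR mutants and −0.13 in wild type. The third highest H3K27me2 difference, 0.35, was at chr3R:9006600-9082749, where H3K27me3 differed by 0.041. Besides chr3R:7317860-7381879, the lowest H3K27me2 differences were at chr3L:16495030-16556399 (−0.069 in SuUR mutants and 0.28 in wild type) and chr2R:10540150-10626289 (−0.061 in SuUR mutants and 0.23 in wild type). In both of these the H3K27me3 difference was also below 0, at −0.097 and −0.048.

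Across the list, SSRs with a higher difference in one mark did not tend to have a higher difference in the other. The Pearson correlation between the H3K27me3 and the H3K27me2 difference was −0.030 (Spearman −0.053, n = 71 SSRs). In 28 SSRs H3K27me3 was higher and H3K27me2 lower in SuUR mutants, in 17 both were higher, in 15 both were lower, and in 11 H3K27me3 was lower and H3K27me2 higher. The first class held 39.4% of the SSRs and 35.4% of the 70-kb stretches of the arms, so its size is no result about the SSRs. Both marks were higher in 23.9% of the SSRs and 33.3% of the stretches, and both were lower in 21.1% and 15.2%. The class with lower H3K27me3 and higher H3K27me2 held 15.5% of the SSRs and 15.9% of the stretches. The H3K27me3 difference minus the H3K27me2 difference had a median of 0.14 (−0.65 to 0.69). The corresponding median was 0.061 in the under-replicated SSRs, of which 34 fell into the class with higher H3K27me3 and lower H3K27me2. The marks were normalized separately and on different libraries, so this contrast compares differences and not amounts of the methyl forms.

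**Figure D2:**
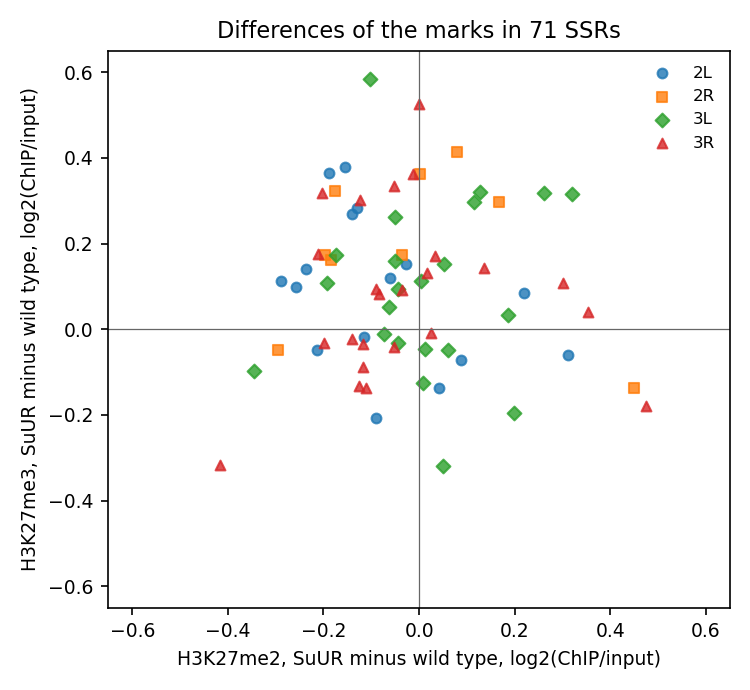
Difference in H3K27me3 (vertical) against the difference in H3K27me2 (horizontal), both SuUR minus wild type in log2(ChIP/input), for the 71 SSRs with a symbol per arm. The cloud has no slope (Pearson −0.030), and the upper left field holds 28 SSRs.

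Within an SSR the windows often disagreed in sign. For H3K27me3, 14 SSRs had no window lower in SuUR mutants, 4 had every window lower and 53 were mixed. For H3K27me2 these numbers were 10, 6 and 55. No such count was taken over stretches of the arms, so whether mixed signs are particular to the SSRs was not tested. At chr3L:7445120-7491219, chr3L:10460041-10505359 and chr3L:20843000-20889229 no window of either mark was lower in SuUR mutants, and these 3 SSRs, all under 50 kb, had almost equal H3K27me3 differences of 0.32. They were picked out for this pattern after the values were seen. The median SD between the windows of an SSR was 0.135 in SuUR mutants and 0.0907 in wild type for H3K27me3, and 0.119 and 0.0953 for H3K27me2.

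SSRs that follow each other in this list along an arm were paired. Those with another SSR of the list between them were not compared. The pairs that lay near were not closer in their differences than the pairs farther apart. In 9 pairs the SSRs lay less than 150 kb apart, and their H3K27me3 differences stood apart by a median of 0.22, against 0.20 in the 58 pairs that were farther apart. For H3K27me2 the medians were 0.23 in the near pairs and 0.14 in the far pairs. An example was a run of 3 SSRs on 3L in which the H3K27me3 difference was 0.32 at chr3L:10460041-10505359, −0.13 at chr3L:10568670-10619360 and −0.32 at chr3L:10689110-10750520. The median distance of an SSR to the closest other SSR was 170 kb, and to the closest under-replicated region 324 kb.

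To see whether SSRs stand out locally, each was set against its flanks, the windows centred 25 to 100 kb outside its edges that overlap no SSR, no SuUR-non-sensitive region (a domain of high H3K27me3 that carries Polycomb) and no under-replicated region, which left 70 SSRs with at least 3 flanking windows. H3K27me3 exceeded the flanks in 49 of 70 SSRs in SuUR mutants (median excess 0.14) and in 56 of 70 in wild type (median 0.16). Of 70-kb stretches placed anywhere on the arms, 61.2% exceeded their flanks in SuUR mutants and 64.6% in wild type. The excess was lower in SuUR mutants in 34 of 70 SSRs, where 50.1% of stretches did so. The difference of the excess had a mean of −0.034 and a median of 0.032. That small median changed sign with the way the windows were read. It was −0.00090 with windows wholly inside the SSR, −0.052 with the central window alone, and −0.031 with flanks of 25 to 60 kb. The flanks had a level of −0.067 in SuUR mutants and −0.20 in wild type, with a median difference of 0.12, and were higher in SuUR mutants at 60 of 70 SSRs. Of the arm windows outside all 3 kinds of region, 66.8% were higher in SuUR mutants, with a median difference of 0.095.

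For H3K27me2 the SSRs exceeded their flanks in 51 of 70 cases in SuUR mutants (median 0.11) and in 62 of 70 in wild type (median 0.19), against 58.0% and 61.3% of stretches. The excess was lower in SuUR mutants in 47 of 70 SSRs (67.1%), with a median difference of −0.076, and 53.4% of stretches did so. The flanks themselves were higher in SuUR mutants by a median of 0.049. In the under-replicated SSRs the H3K27me2 excess was lower in SuUR mutants in 48 of 71, with a median of −0.086.

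**Figure D3:**
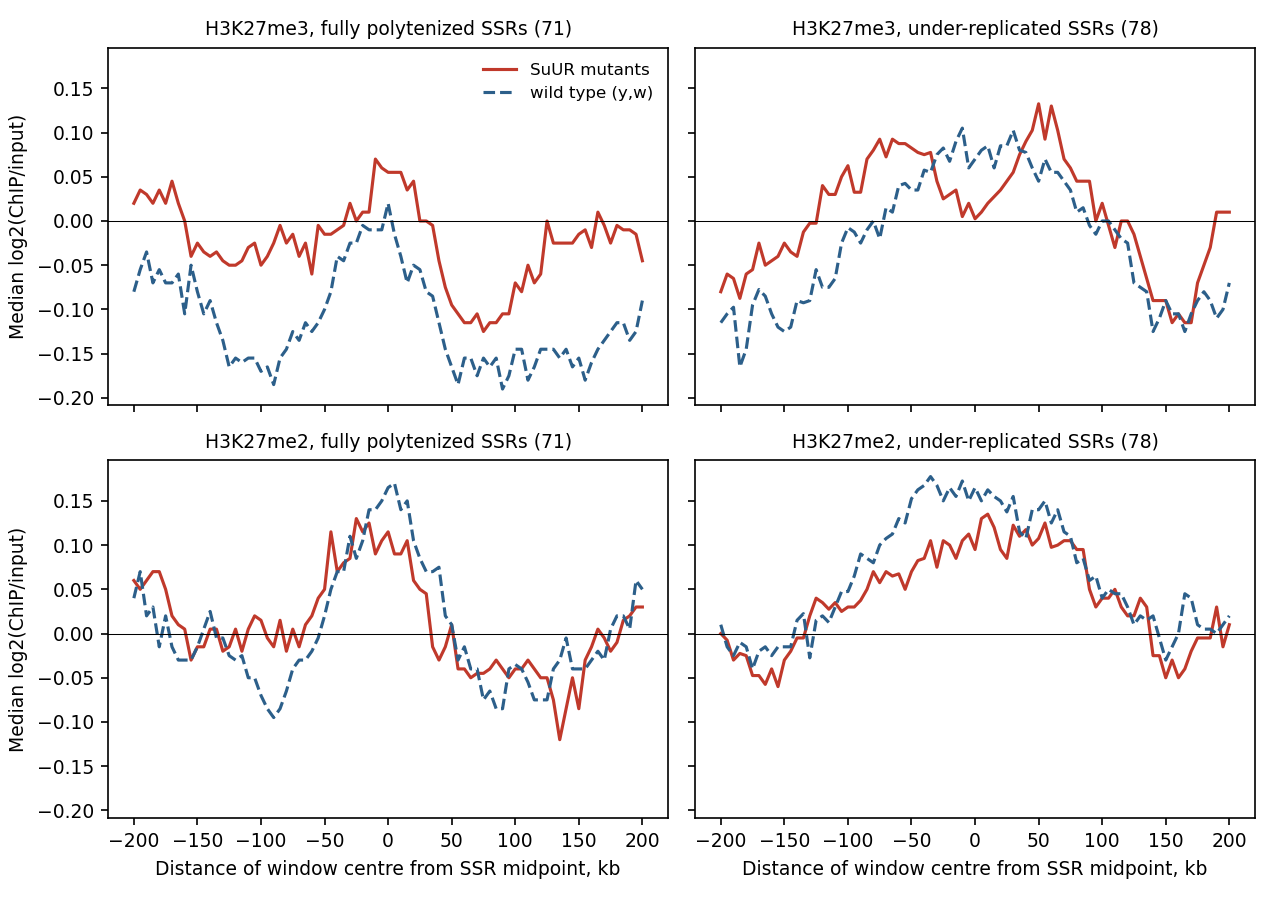
Median log2(ChIP/input) at each distance of the window centre from the SSR midpoint (kb), SuUR mutants as solid and wild type as dashed lines, for the 71 fully polytenized SSRs (left) and the 78 under-replicated SSRs (right). At the midpoint of the fully polytenized SSRs the H3K27me3 median was 0.055 in SuUR mutants and 0.020 in wild type, and the H3K27me2 median was 0.115 in SuUR mutants and 0.165 in wild type.

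The median profile around the SSR midpoint had a peak in both marks and both genotypes. At the midpoint H3K27me3 was 0.055 in SuUR mutants and 0.020 in wild type. At 100 kb on the left side (lower coordinates) it was −0.050 in SuUR mutants and −0.17 in wild type, and at 100 kb on the right side −0.070 in SuUR mutants and −0.145 in wild type. The median difference was 0.045 at the midpoint, 0.12 at 100 kb on the left and 0.050 at 100 kb on the right, and at 200 kb it was 0.105 on the left and 0.085 on the right. For H3K27me2 the midpoint values were 0.115 in SuUR mutants and 0.165 in wild type. The order varied away from the midpoint, with −0.030 in SuUR mutants and 0.075 in wild type at 40 kb on the right, 0.010 in both at 50 kb on the right, and 0.015 in SuUR mutants and −0.070 in wild type at 100 kb on the left. In the under-replicated SSRs the H3K27me3 median at the midpoint was 0.0025 in SuUR mutants and 0.070 in wild type, while at 50 kb it was 0.0825 in SuUR mutants and 0.035 in wild type on the left, and 0.1325 in SuUR mutants and 0.045 in wild type on the right. The SuUR value was thus below that of wild type at the midpoint and above it at 50 kb on either side.

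Set against the under-replicated SSRs, the wild type level of H3K27me3 was lower in the fully polytenized SSRs (median −0.028 in these 71 and 0.038 in the 78 under-replicated ones), whereas the SuUR medians were 0.058 and 0.054. The median difference was 0.107 in the fully polytenized and 0.036 in the under-replicated SSRs, and 26 of 71 and 31 of 78 were lower in SuUR mutants. For H3K27me2 the medians were 0.067 and 0.097 in SuUR mutants, and 0.14 in wild type for both lists. Lower H3K27me2 in SuUR mutants was not particular to the fully polytenized SSRs. It stood beside higher H3K27me3 in 43.6% of the under-replicated SSRs and beside lower H3K27me3 in 24.4%. In the fully polytenized SSRs these shares were 39.4% and 21.1%. The under-replicated SSRs were much longer, the median length being 70.6 kb in the fully polytenized and 199.9 kb in the under-replicated SSRs, so the classes differ in how many windows are averaged and how far a window reaches beyond the region. In bulk glands, fewer nuclei with a mark and less of the mark in each nucleus cannot be told apart.

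The SSRs were grouped by length into those under 50 kb (13), of 50 to 100 kb (41) and of 100 kb or more (17). In the shortest class the H3K27me3 medians were 0.10 in SuUR mutants and −0.099 in wild type and the median difference was 0.30, with 5 of 13 lower in SuUR mutants and 7 of 13 higher by 0.25 or more, where 23.9% of arm windows were higher by that amount. Its mean difference was 0.173, close to the 0.160 of the longest class. In the middle class the medians were 0.036 in SuUR mutants and −0.013 in wild type, the median difference was 0.041, and 20 of 41 were lower in SuUR mutants. In the longest class the medians were 0.081 in SuUR mutants and −0.055 in wild type, the median difference was 0.15, and 16 of 17 were higher in SuUR mutants. The exception was the longest SSR of all, chr3R:14626891-14793490 (166.6 kb), with −0.052 in SuUR mutants and −0.016 in wild type. Over the arms, 62.6% of windows and 68.8% of 70-kb stretches were higher in SuUR mutants, and stretches as long as this class were not read. The Spearman correlation of the difference with length was 0.031 (n = 71), and it depended on how it was taken. It was 0.21 with only windows wholly inside (54 SSRs), 0.20 in the 58 SSRs of at least 50 kb and 0.20 without 3L, whereas it was −0.070 without 2L, −0.024 without 3R and −0.0068 when the median of windows was used. A window is as wide as or wider than each SSR of the shortest class, so part of its signal comes from outside the SSR, and the flanks of that class differed by a median of 0.12.

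The next longest SSRs were chr3R:22089440-22251809 (162.37 kb), with H3K27me3 at 0.21 in SuUR mutants and 0.041 in wild type, and chr3L:7157070-7312769 (155.7 kb), with −0.014 in SuUR mutants and −0.11 in wild type. Of the 3 shortest, chr3R:9146490-9179729 (33.24 kb) had −0.012 in SuUR mutants and −0.15 in wild type. The other two were lower in SuUR mutants, chr3L:16282140-16315489 (33.35 kb) by 0.033 and chr2L:6573770-6610549 (36.78 kb) by 0.14. None of the 3 shortest was among the SSRs past 0.25.

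For H3K27me2 the median difference was 0.041 in SSRs under 50 kb, −0.052 in those of 50 to 100 kb and −0.084 in those of 100 kb or more, where 14 of 17 were lower in SuUR mutants. Over the arms, 49.8% of windows and 50.7% of 70-kb stretches were lower, and longer stretches were not read. The wild type medians went up with length (0.035, 0.13 and 0.16), whereas the SuUR medians did not (0.098, 0.053 and 0.046). The Spearman correlation with length was −0.25 for the difference, 0.26 for the wild type level and −0.12 for the SuUR level (n = 71). For the difference it was −0.018 with only windows wholly inside and −0.13 in the SSRs of at least 50 kb, so the relation was weaker without windows that reach beyond the SSRs and without the shortest SSRs. Longer SSRs average more windows, and the number of windows is shared by both measures, so the correlations are descriptions only.

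**Figure D4:**
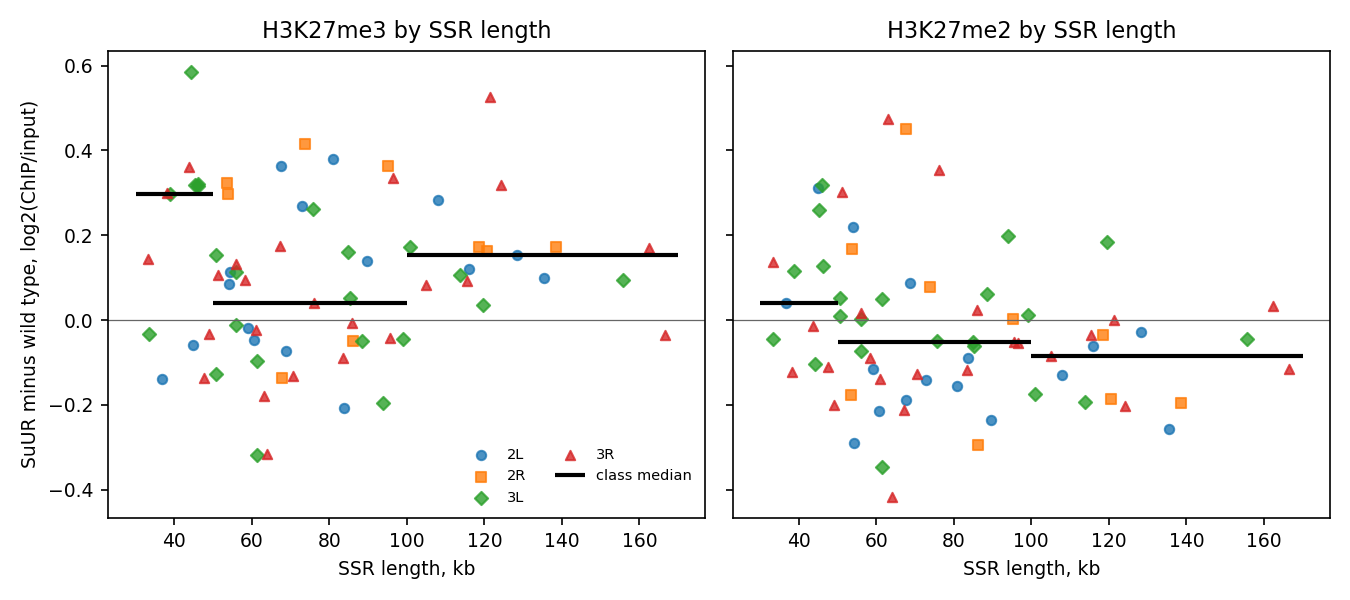
Difference SuUR minus wild type in log2(ChIP/input) against SSR length in kb, H3K27me3 on the left and H3K27me2 on the right, with a symbol per arm and black bars for the medians of the 3 length classes. The H3K27me3 medians are 0.30, 0.041 and 0.15 from short to long, and those of H3K27me2 are 0.041, −0.052 and −0.084.

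Position along the arm was measured from the pericentric end in percent of the stretch that the profiles cover, and the SSRs stood at 9.6% to 93.3%. Each arm was cut into 3 equal parts. The median H3K27me3 difference was 0.034 in the 17 SSRs of the proximal part, 0.096 in the 28 of the middle part and 0.15 in the 26 of the distal part. The number lower in SuUR mutants was 8 of 17, 12 of 28 and 6 of 26. Over whole arms, 36.4% of windows and 31.1% of 70-kb stretches were lower. These shares are not split by part, although the arm windows also changed along the arm. The Spearman correlation with position was 0.23 (n = 71), and it was positive on every arm, with 0.14 on 2L (n = 16), 0.17 on 2R (n = 9), 0.37 on 3L (n = 22) and 0.37 on 3R (n = 24). All windows of the arms showed the same order, with median differences of 0.040, 0.075 and 0.11 in the proximal, middle and distal part. The flanks of the SSRs differed by 0.094, 0.093 and 0.15 in these parts, and the SuUR minus wild type excess over the flanks had a Spearman correlation of 0.056 with position (n = 70).

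For H3K27me2 the medians ran the other way, with 0.012 in the proximal, −0.053 in the middle and −0.068 in the distal part, and a Spearman correlation of −0.13. On single arms the correlation was 0.041 on 2L, 0.18 on 2R, −0.26 on 3L and −0.043 on 3R, which has no common sign. All arm windows had median differences of 0.0050, 0.0 and −0.010 in the proximal, middle and distal part.

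**Figure D5:**
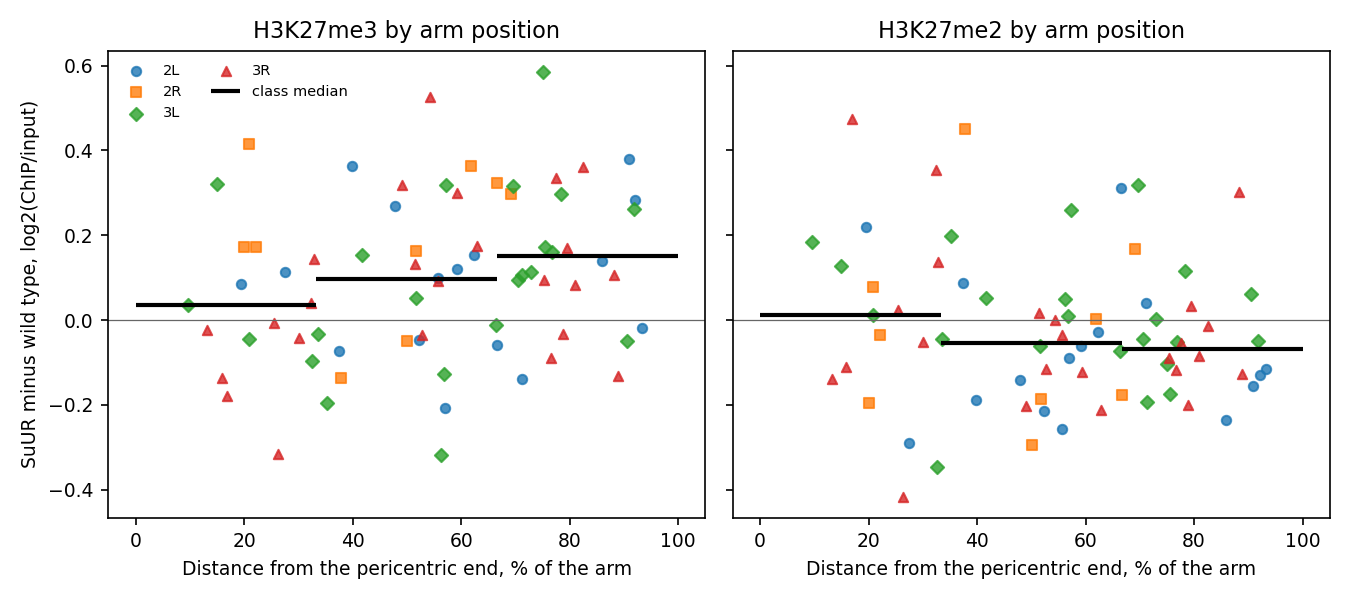
Difference SuUR minus wild type in log2(ChIP/input) against the distance from the pericentric end in percent of the arm, H3K27me3 on the left and H3K27me2 on the right, with a symbol per arm and black bars for the medians of the 3 parts of an arm. The H3K27me3 medians are 0.034, 0.096 and 0.15 from proximal to distal, and those of H3K27me2 are 0.012, −0.053 and −0.068.

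At the ends of the list, the most proximal SSR of 3L, chr3L:22109291-22228949, had an H3K27me3 difference of 0.034 and an H3K27me2 difference of 0.18. The most proximal SSRs of the other arms were chr2L:18380680-18434729 (0.085 for H3K27me3), chr2R:4164160-4302689 (0.17) and chr3R:3646760-3707759 (−0.023). The most distal ones were chr2L:1505960-1565069 (−0.018), chr2R:14602690-14656429 (0.30), chr3L:1971760-2047539 (0.26) and chr3R:24755810-24826440 (−0.13). At either end of the arms the sign differed between arms. The SSR chr2L:1505960-1565069 is also the one closest to an under-replicated region, 5.96 kb away, with H3K27me3 at 0.066 in SuUR mutants and 0.083 in wild type.

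By arm, the median H3K27me3 difference was 0.11 on 2L, 0.17 on 2R, 0.10 on 3L and 0.087 on 3R. On 2R the SuUR level was above 0 in 8 of 9 SSRs, and the wild type level was below 0 in 8 of 9. Of all 71 SSRs, 62.0% were above 0 in SuUR mutants and 64.8% were below 0 in wild type. Of the single windows of all 4 arms, 42.9% were above 0 in SuUR mutants and 65.0% were below 0 in wild type. The median H3K27me2 difference was −0.12 on 2L, −0.036 on 2R, 0.0062 on 3L and −0.068 on 3R. On 2L, 12 of 16 SSRs were lower in H3K27me2, on 3L 10 of 22. Over all arms together, 49.8% of H3K27me2 windows and 50.7% of 70-kb stretches were lower.

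A few SSRs lie close to other classes of chromatin. Of the SSRs, 6 were within 50 kb of one of the 158 SuUR-non-sensitive regions. Their median H3K27me3 difference was −0.020, with 4 of 6 lower in SuUR mutants, whereas the 65 SSRs farther away had 0.11, with 22 lower. Of all arm windows, 36.4% were lower. The group is small, and its closest SSRs lay 3.9, 10.651 and 16.76 kb from such a region. Windows near their edges reach into it, so their values are not those of the SSRs alone. Only 3 SSRs lay within 50 kb of an under-replicated region, and the median difference of the other 68 was 0.107. The distance to the nearest under-replicated region had a Spearman correlation of −0.055 with the H3K27me3 difference and of −0.050 with the H3K27me2 difference over the 71 SSRs.

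The median H3K27me3 difference kept its sign over the list. Its size depended on how the arms were scaled and on which windows were read. With quantile normalization redone over the arms alone the median was 0.040, with the median of the arms subtracted it was 0.052, and with the central window alone it was 0.045. The positive sign over the list was present in each of these, and under the first of them 42.3% of the SSRs were lower in SuUR mutants. This sign is not particular to the SSRs, since 62.6% of all arm windows were higher in SuUR mutants, with a median difference of 0.075. The median excess over the flanks, SuUR minus wild type, did change sign between settings, as given above.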

How the data were processed

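Profiles of larval salivary glands were analysed (8 of the 20 libraries, the other 12 being from embryos and not used). The authors aligned read pairs with MOSAIK to the dm3 assembly, calculated RPM for ChIP and input and deposited log2 of the ratio, quantile normalized between genotypes within an antibody. The sorted values of the genotypes were checked and differed by 0. Methods name 3 biological replicates, and whether libraries were pooled for these profiles is not given in the sources used here. SSRs, under-replicated regions and SuUR-non-sensitive regions were taken as coordinates from the study's supplementary lists. Members, length classes and alternatives were chosen with earlier results of these data known. SSRs named in the text are the 5 lowest and 5 highest for the H3K27me3 difference, the 3 lowest and 3 highest for H3K27me2, the 3 longest, the 3 shortest, and the SSRs nearest both ends of each arm. In addition, 4 SSRs of 3L (starting at 7445120, 10460041, 10568670 and 20843000) were named after their values were seen. Background shares are over arm windows, and, as an addition made after the data were seen, over 70-kb stretches centred on each arm window. Scripts were tested on simulated profiles. Python 3.11.15, numpy 2.4.6, pandas 2.3.3 and scipy 1.17.1 were used. No dm3 sequence or gene annotation was used, so no genes or sequences are given. The alternatives were the rule for windows inside an SSR, the scale, the normalization, the SSRs used, the flanks, the size threshold and the arms.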

Additional observations from a re-analysis of the deposited data

How the results depend on the processing

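Of 258 alternative values for 21 results under 16 settings, 223 were counted as unchanged, 26 moved and 9 changed sign, and the cause was not tested. Unchanged values stayed on their side and within the tolerance set for each kind of value. This was a 95% order-statistic or Wilson interval over SSRs, a Fisher interval for correlations, and 1.5 times for counts. These intervals take the SSRs as units, and SSRs of a single pair of profiles are not replicates. They served only to sort the values, and they were wide. For the median H3K27me3 difference of 0.107 the limits were 0.034 and 0.153, so 0.040 under quantile normalization over the arms was counted as unchanged. Medians on the percentile scale were judged by their sign alone. The H3K27me3 excess over flanks, SuUR minus wild type (0.032), became −0.00090 with windows wholly inside, −0.052 with the central window, −0.018 with the median of windows, −0.021 without 2R and −0.031 with flanks of 25 to 60 kb. The correlation of the H3K27me3 difference with length (0.031) became −0.0068 with the median of windows, −0.070 without 2L and −0.024 without 3R. The H3K27me2 difference against under-replicated SSRs became 0.0069 without 2L. With windows wholly inside (54 SSRs), 4 SSRs were lower by 0.25 in H3K27me3, 8 were lower and 3 higher in H3K27me2, the H3K27me2 difference was −0.12 and its excess over flanks in wild type 0.26. With the central window, 6 and 16 SSRs were lower in H3K27me3 and H3K27me2, and the H3K27me2 excess differed by −0.14. With quantile normalization over the arms, 4 SSRs were lower and 9 higher in H3K27me3, and the contrast of the marks was 0.067. With the median of the arms subtracted, 4 were lower in H3K27me3 and the contrast was 0.083. With SSRs of at least 50 kb (58), 12 were higher in H3K27me3 and 4 in H3K27me2. Without 2L, 3 were lower in H3K27me2. Without 3L, 1 was lower in H3K27me3, and without 3R, 1 was lower in H3K27me3 and 4 higher in H3K27me2. At 0.15, 5 were lower in H3K27me3, 17 lower and 11 higher in H3K27me2. At 0.4, 0 were lower and 3 higher in H3K27me3, and 1 lower and 2 higher in H3K27me2. No paired analysis was possible because each genotype and mark has a single profile. Depth is unknown, and 50-kb windows limit what can be read in SSRs under 50 kb.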
